A study of Mus musculus with 9 samples.

Results

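Serpins are a family of protease inhibitors that share 1 fold. An inhibitory serpin offers a loop as bait to its target protease and, once cut, snaps into a more stable shape that traps the protease, so each molecule works once. The liver secretes most of the serpins of blood plasma, where they hold clotting, fibrinolytic, complement and leukocyte proteases in check, and several members have lost inhibition and instead carry hormones or fold collagen. The genes described here are the mouse genes whose symbol is Serpin followed by a clade letter from a to i and a number, without pseudogenes, among probe sets annotated with exactly 1 symbol. They number 47 of 19938 genes measured, each with 1 probe set.

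Liver RNA of 9 mice was hybridised to Affymetrix gene arrays, with 1 animal on each array and 3 animals in each of 3 groups. Wild-type animals were C57BL/6J. Mutant animals carried Clock-D19, an allele whose CLOCK protein binds its partner BMAL1 but is a weak activator of transcription. Rescue animals carried Clock-D19 as well and received 35 µg of a plasmid expressing wild-type Clock (pLIVE vector) injected hydrodynamically into the tail vein at week 10, a route that reaches mainly hepatocytes. From 10 weeks of age all groups were fed a diet with 45% fat for 5 weeks, under 12 h of light and 12 h of dark, and were killed at zeitgeber time 10, that is 10 h after lights on. The labels describe no control injection of the other groups. A single time of day was sampled, so a difference in level and a difference in the phase of a daily rhythm cannot be told apart. The values below are log2 expression values made with RMA, a method that normalizes all arrays together; they compare 1 gene between animals, not 1 gene with another.

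Clade A of the family, which holds the antitrypsins, antichymotrypsins and hormone carriers, had 14 members here, and clade B, whose proteins stay mainly inside the cell, had 24. The other 9 were Serpinc1, Serpind1, Serpine3, Serpinf1, Serpinf2, Serping1, Serpinh1, Serpini1 and Serpini2. As a rough mark for genes that are off, the 95th percentile of the olfactory receptor genes was used, which lay between 5.74 and 6.04 on the arrays. Of the 47 serpin genes, 16 lay above that mark on all 9 arrays, 5 on some arrays and 26 on none. The 16 were 8 members of clade A, Serpinb6b of clade B, and 7 of the 9 others; both members of clade I lay below it throughout. A low signal of these 26 genes need not be expression, and RMA compresses differences at such levels.

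Most serpin genes did not pass the test in any comparison, and 7 did. A gene was called when its Benjamini-Hochberg adjusted p from limma, taken over all 19938 genes, was under 0.05. In Clock mutant against wild-type liver 5 of 47 were called (10.6%, against 15.4% of all genes): Serpina12, Serpinb1a and Serpinf2 rose, as did 6.37% of all genes, and Serpina7 and Serpinb8 fell, as did 9.02%. In rescue against mutant liver 4 were called (8.51%, against 3.81% of all genes): Serpina7 and Serpinb6b rose (2.61% of all genes did), and Serpina12 and Serpinb1a fell (1.2% of all genes did). In rescue against wild-type liver 2 were called (4.26%, against 2.28% of all genes): Serpinb6b was higher (0.928% of all genes) and Serpina6 lower (1.35% of all genes). Single animals weighed on these counts. Without mutant replicate 1, 3 were called in the first comparison and only Serpina12 in the second, and without rescue replicate 2 again only Serpina12 in the second. In the third, none was called without wild-type replicate 1 or rescue replicate 2, and 1 without wild-type replicate 2 or 3, mutant replicate 1 or 3, or rescue replicate 1 or 3. These shares rest on 2 to 5 genes and were not tested against those of all genes. The median difference of the 47 genes was 0.02, -0.06 and -0.03 in the 3 comparisons, beside 0.07, -0.05 and 0.01 for all genes. The comparisons share animals (the mutants enter the first pair of comparisons), and their values are therefore set side by side only.

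**Figure D1:**
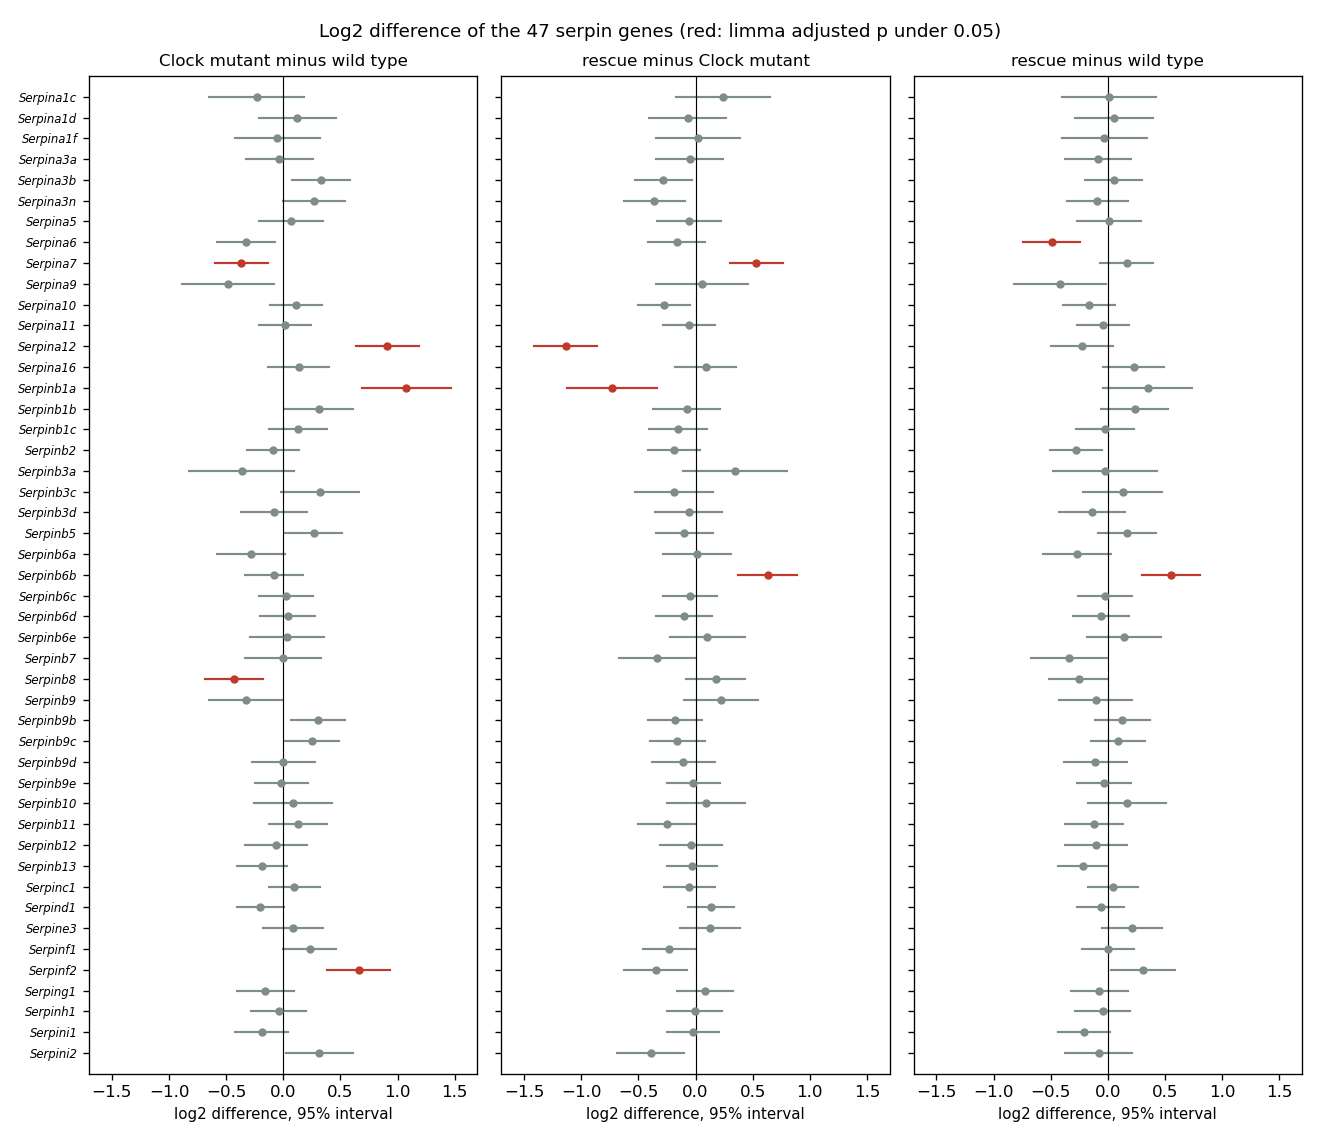
Log2 difference of each of the 47 serpin genes (dot) with its 95% interval (line) in 3 comparisons, ordered by clade; red marks an adjusted p under 0.05 (limma, n = 3 per group). Most intervals include 0, and Serpina12 and Serpinb1a lie farthest to the right in mutant minus wild type, at 0.91 and 1.08.

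Promoter windows of 3 secreted members are printed first, because these genes were called in the mutant (Serpina12 and Serpinf2 up, Serpina7 down) and because CLOCK acts on transcription. Each window runs from 250 bases before to 50 bases after an annotated gene start, from RefSeq on GRCm38.p6, read 5′ to 3′ on the gene's strand. They lie at chr12:104044394-104044693, chrX:139085187-139085486 and chr11:75439452-75439751, all on the minus strand. Capitals mark a match to AGGTCA, the core letters of the sites bound by REV-ERB, ROR and other nuclear receptors.
Serpina12: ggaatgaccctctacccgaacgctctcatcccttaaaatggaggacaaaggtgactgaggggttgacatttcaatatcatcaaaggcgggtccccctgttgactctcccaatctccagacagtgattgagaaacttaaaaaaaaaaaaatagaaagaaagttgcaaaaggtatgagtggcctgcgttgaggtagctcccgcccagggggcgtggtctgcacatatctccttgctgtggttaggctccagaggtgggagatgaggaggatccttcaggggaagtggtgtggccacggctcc
Serpina7: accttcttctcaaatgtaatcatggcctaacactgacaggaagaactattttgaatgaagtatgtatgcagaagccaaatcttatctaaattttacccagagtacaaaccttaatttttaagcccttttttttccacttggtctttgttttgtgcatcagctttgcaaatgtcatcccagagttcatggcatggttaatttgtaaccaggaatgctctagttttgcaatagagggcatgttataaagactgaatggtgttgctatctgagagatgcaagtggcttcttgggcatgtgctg
Serpinf2: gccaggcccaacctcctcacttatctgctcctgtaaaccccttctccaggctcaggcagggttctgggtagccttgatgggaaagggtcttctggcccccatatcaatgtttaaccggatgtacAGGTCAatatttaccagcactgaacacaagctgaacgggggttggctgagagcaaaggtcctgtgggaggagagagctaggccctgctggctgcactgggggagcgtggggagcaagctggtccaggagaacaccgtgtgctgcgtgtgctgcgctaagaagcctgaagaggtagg

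Motifs of the clock's transcription factors were searched on both strands of such windows, which the table held for 41 of the 47 serpin genes (49 windows, since some genes have 2 starts). The E-box CACGTG, which CLOCK and BMAL1 bind, was in none of the 49 windows and in 7.15% of all 32851 windows. The D-box TTATGTAA or TTACGTAA, bound by Dbp, Tef, Hlf and Nfil3, was in none of the 49 and in 1.06% of all. AGGTCA was in 17 windows of 15 serpin genes (34.7% of the 49), against 16.3% of all. Many of these genes are recent copies of one another, such as Serpinb9c, Serpinb9d and Serpinb9e, and share promoter sequence, so they are not independent. Most of the 15 lay below the olfactory receptor mark on every array. Only Serpina11, Serpind1, Serpinf1 and Serpinf2 of them lay above it, so the share does not describe serpins expressed in liver. Among the called members with a window (Serpina12, Serpina7, Serpinf2, Serpinb6b and Serpinb8), only that of Serpinf2 held a match, 126 bases before the gene start. A match is no evidence of binding, and the lack of one covers these 300 bases alone.

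Serpina12, which encodes vaspin, an inhibitor of kallikrein 7 known as an insulin-sensitizing adipokine, had the most clear-cut pattern. Its log2 value was 6.82, 7.25 and 7.33 in the wild-type animals, 7.96, 8.10 and 8.07 in the mutants, and 6.83, 6.87 and 7.01 in the rescue animals. All 3 mutant animals lay above all 6 others, and the rescue and wild-type values overlapped. The mutant was 0.91 ± 0.13 (SE) above wild type, a 1.88-fold difference (limma adjusted p = 4.34e-04, n = 3 per group). Rescue minus mutant was -1.14 ± 0.13 (limma adjusted p = 5.99e-04), a 2.2-fold difference. Rescue minus wild type was -0.23 with a 95% interval of -0.50 to 0.05 (adjusted p = 0.477). Both calls held in each of 17 alternatives, with differences of 0.75 to 1.01 and -1.19 to -1.08. Fat tissue is known to make vaspin too. Of 7 measured adipocyte markers none was called between mutant and wild type, where 15.4% of all genes were. Fabp4 alone was higher in rescue than in mutant, by 0.52 ± 0.12 (limma adjusted p = 0.0333), as were 2.61% of all genes. The part of fat cells in the Serpina12 values was not tested.

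In the gene order of GRCm38.p6, Serpina12 lies between Serpina9 and Serpina5, with Serpina11 and Serpina3a next to them. None of these 4 neighbours was called in any comparison. Their mutant minus wild-type differences were 0.01 for Serpina11, -0.48 for Serpina9, 0.06 for Serpina5 and -0.03 for Serpina3a. Of them only Serpina11 lay above the olfactory receptor mark on all arrays, so an equal change of the dim neighbours may not have been measurable.

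Serpina7 and Serpina6 encode the hormone carriers of the family, thyroxine-binding globulin and corticosteroid-binding globulin. Serpina7 read 9.95, 9.83 and 9.99 in wild type, 9.61, 9.39 and 9.67 in the mutants, and 10.07, 10.18 and 10.01 in rescue. The 3 groups did not overlap, with the mutants lowest and the rescue animals highest. The fall in mutants was -0.37 ± 0.11 (limma adjusted p = 0.0347, n = 3 per group) and the rise from mutant to rescue 0.53 ± 0.11 (limma adjusted p = 0.0193). Rescue minus wild type was 0.17, with an interval of -0.06 to 0.40 (adjusted p = 0.554). The fall was not called without wild-type replicate 1 (-0.35, limma adjusted p = 0.0919) or 3 (-0.33, 0.118), without mutant replicate 1 (-0.39, 0.0644) or 2 (-0.28, 0.119), or with quantile normalization repeated (-0.28, 0.0967). The rise was not called without mutant replicate 1 (0.56, limma adjusted p = 0.0532) or 2 (0.45, 0.058), or without rescue replicate 2 (0.49, 0.0708).

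Serpina6 was lower in both groups that carry the mutation. Its values were 12.17, 12.17 and 12.14 in wild type, 11.77, 11.85 and 11.87 in mutant, and 11.85, 11.40 and 11.76 in rescue liver. Every mutant and every rescue animal lay below every wild-type animal, and rescue and mutant values overlapped. Rescue was below wild type by 0.49 ± 0.12 (-0.49, limma adjusted p = 0.0423, n = 3 per group), while mutant minus wild type was -0.33 ± 0.12 and did not pass (limma adjusted p = 0.0771). The mutant difference was called in 7 of 17 alternatives, among them each array centred on its median (-0.40, limma adjusted p = 0.041) and the trend with gene span removed (-0.41, 0.0315). The rescue call was lost with only the 6 arrays compared (-0.49, limma adjusted p = 0.0693) and without wild-type replicate 1 (-0.48, 0.126), 2 (-0.49, 0.103) or 3 (-0.50, 0.116). It was also lost without mutant replicate 1 (-0.49, limma adjusted p = 0.057) or 3 (-0.49, 0.0595) and without rescue replicate 2 (-0.36, 0.139) or 3 (-0.54, 0.085). Rescue minus mutant was -0.17, with an interval of -0.42 to 0.09. Of the nearest genes in order, Serpina10, Serpina16 and Serpina1f were called in no comparison. Serpina16 and Serpina1f lay below the olfactory receptor mark on every array, so a change of them may not have been measurable. Ppp4r4, next to Serpina10, fell in the mutants against wild type (-0.59, limma adjusted p = 0.00254).

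Serpinf2 encodes alpha-2-antiplasmin, the main inhibitor of plasmin in blood. It read 9.40, 9.34 and 9.03 in wild type, 9.92, 9.94 and 9.88 in the mutants and 9.69, 9.30 and 9.70 in rescue. The mutants lay above all other animals, and the rescue values spanned the upper part of the wild-type range and the gap above it. The mutant rise was 0.66 ± 0.13, or 1.58-fold (limma adjusted p = 0.00382, n = 3 per group), and was called in each of 17 alternatives at 0.55 to 0.76. Rescue minus mutant was -0.35 (95% interval -0.63 to -0.07, limma adjusted p = 0.143) and rescue minus wild type was 0.31 (0.03 to 0.59, limma adjusted p = 0.284), so rescue liver passed the test against neither group. The adjacent gene Serpinf1, which encodes the non-inhibitory serpin PEDF, differed by 0.23 between mutant and wild type (interval 0.00 to 0.46, limma adjusted p = 0.16) although all 3 mutant values, 11.41, 11.49 and 11.39, lay above the wild-type values of 11.20, 11.27 and 11.13. On the other side, Wdr81 did not pass (0.33, limma adjusted p = 0.0934), and Tlcd2, the next gene, was called in both comparisons, at 0.77 in mutant against wild type (limma adjusted p = 7.82e-04) and -0.58 in rescue against mutant (limma adjusted p = 0.0193).

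**Figure D2:**
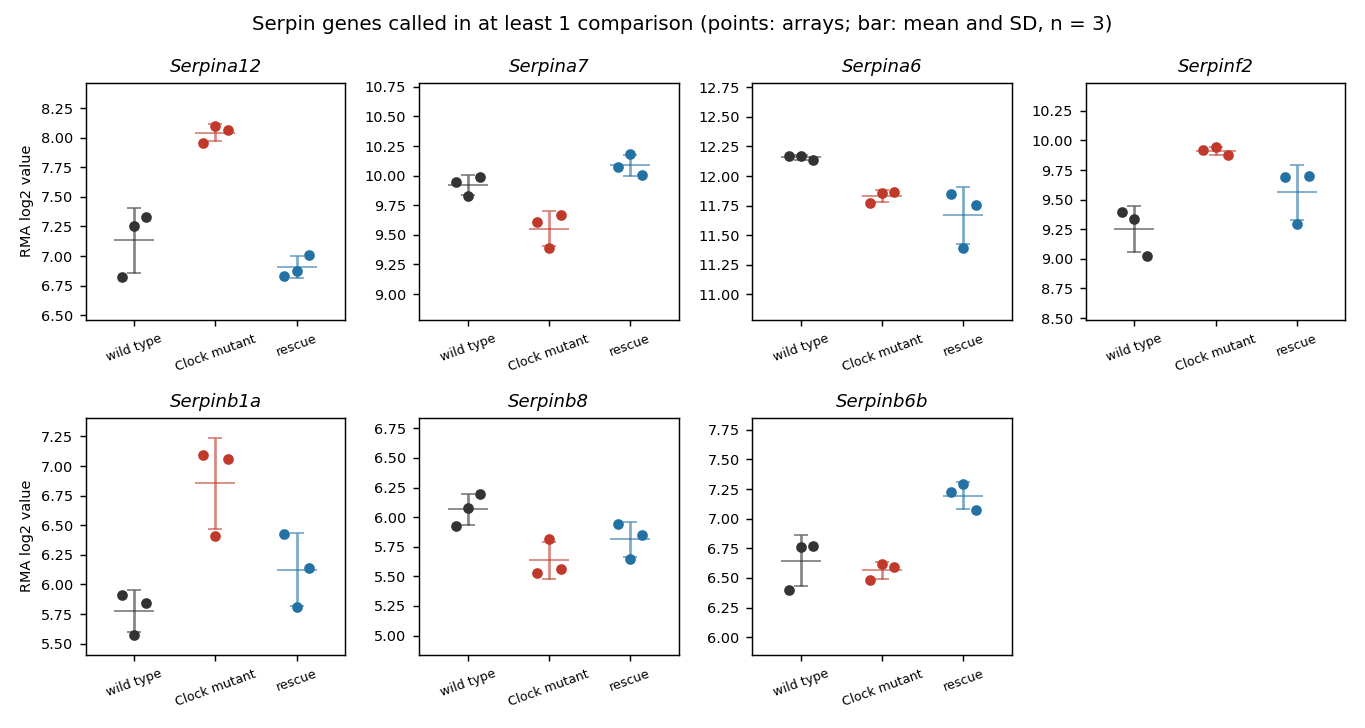
RMA log2 value of the 7 called serpin genes on each array (points) with the mean and SD of each group (bar, n = 3); each panel spans 2 log2 units. Serpina12 and Serpinf2 are highest in all 3 mutants, and Serpinb6b is highest in all 3 rescue animals, at 7.07 to 7.29.

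Of the intracellular clade, 3 members were called. Serpinb1a encodes an inhibitor of neutrophil elastase and cathepsin G that is also made by hepatocytes. It read 5.91, 5.57 and 5.84 in wild type, 7.09, 6.41 and 7.06 in the mutants and 6.43, 5.81 and 6.14 in rescue. The mutants lay above all wild-type animals; in rescue replicate 1 the value just exceeded that of mutant replicate 2. The mutant rise of 1.08 ± 0.18, or 2.11-fold, was the largest of the 47 genes (limma adjusted p = 0.00151, n = 3 per group) and was called in each of 17 alternatives. Since wild-type values lay near the olfactory receptor mark, the size may be understated. Rescue minus mutant was -0.73 ± 0.18 (limma adjusted p = 0.0433).

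That fall of Serpinb1a in rescue liver was close to the threshold. It was not called with quantile normalization repeated (-0.69, limma adjusted p = 0.0673), with each array centred on its median (-0.67, 0.0689), with the trend with gene span removed (-0.66, 0.0735) or with only the 6 arrays compared (-0.73, 0.0582). Nor was it called without wild-type replicate 3 (-0.73, limma adjusted p = 0.0528), mutant replicate 1 (-0.61, 0.137) or 3 (-0.63, 0.121), or rescue replicate 2 (-0.57, 0.137) or 3 (-0.74, 0.11). Neutrophils are rich in this inhibitor. Of 13 measured neutrophil markers, none was called between mutant and wild type, where 15.4% of all genes were. Of the 13, 12 lay below the olfactory receptor mark on every array. The mean level of the list was 4.75 to 4.89 in wild type, 4.82 to 4.94 in mutant and 4.64 to 4.91 in rescue liver. Markers this dim may not show a change in neutrophils, and the part of neutrophils in the Serpinb1a values was not tested.

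Serpinb6b, 1 of the mouse copies related to human SERPINB6, was higher in rescue liver than in either other group. It read 6.39, 6.76 and 6.77 in wild type, 6.48, 6.62 and 6.59 in the mutants and 7.23, 7.29 and 7.07 in rescue. Rescue values lay above all 6 others, and mutant minus wild type was -0.08 with an interval of -0.33 to 0.18. Rescue exceeded mutant by 0.63 ± 0.12 (limma adjusted p = 0.0136, n = 3 per group) and wild type by 0.55 ± 0.12 (limma adjusted p = 0.0245). The first call was lost without mutant replicate 1 (0.59, limma adjusted p = 0.0587) or rescue replicate 2 (0.58, 0.0547), and the second without wild-type replicate 1 (0.43, 0.112), rescue replicate 1 (0.54, 0.0785) or rescue replicate 2 (0.51, 0.0941). In gene order only Serpinb1c stands between Serpinb1a and Serpinb6b, and Serpinb1c was called in no comparison. Serpinb1c lay below the olfactory receptor mark on every array, so a change of it may not have been measurable. Rescue animals also differed from both others in having been injected, which cannot be told apart from the effect of Clock.

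Serpinb8, an inhibitor that can block the protease furin, was 5.93, 6.08 and 6.19 in wild type, 5.53, 5.82 and 5.56 in mutant and 5.94, 5.65 and 5.85 in rescue liver. All mutant values lay below all wild-type values, and rescue overlapped both. The measured fall was -0.43 ± 0.12 (limma adjusted p = 0.0266, n = 3 per group). All 3 mutant values lay below the olfactory receptor mark of their arrays (5.91, 6.02 and 5.88), so the mutant level need not be above background and the size of the fall is uncertain. It was not called without wild-type replicate 2 (-0.42, limma adjusted p = 0.0633) or 3 (-0.37, 0.109) or mutant replicate 1 (-0.38, 0.0932) or 3 (-0.39, 0.0836). Beside it, 12 of 21 endothelial and 12 of 19 Kupffer cell and macrophage markers fell in mutant liver and none rose. Of all genes, 9.02% fell and 6.37% rose. The mean level of the endothelial list was 7.67 to 7.80 in wild type, 7.23 to 7.27 in mutant and 7.36 to 7.64 in rescue, and that of the Kupffer list was 7.18 to 7.61, 6.62 to 6.72 and 6.72 to 6.97. Their part in the fall of Serpinb8 was not tested, and in bulk tissue fewer cells of a type and less RNA per cell cannot be told apart.

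Several main plasma inhibitors passed the test in no comparison. Serpinc1, which encodes antithrombin, the main inhibitor of thrombin and factor Xa, read 12.32, 12.35 and 12.27 in wild type, 12.39, 12.47 and 12.38 in mutant and 12.46, 12.20 and 12.42 in rescue liver. Mutant minus wild type was 0.10, with a 95% interval of -0.12 to 0.32 (limma adjusted p = 0.547), although the groups did not overlap. Serpind1, heparin cofactor II, a second thrombin inhibitor, differed by -0.20 (interval -0.40 to 0.00, limma adjusted p = 0.17), again without overlap between mutant and wild type. Serping1, the C1 inhibitor of complement and contact activation, differed by -0.16 (-0.41 to 0.09), and Serpina10, which blocks factor Xa together with protein Z, by 0.11 (-0.12 to 0.34).

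The antitrypsin genes could be separated only in part. Serpina1c and Serpina1d each had a probe set of their own, and 2 further probe sets were annotated to 5 Serpina1 genes together. Serpina1c ranged from 11.07 to 12.10 among the 3 mutants, against 11.71 to 12.09 in wild type and 11.83 to 11.91 in rescue, and its mutant minus wild-type difference of -0.23 had an interval of -0.65 to 0.18. Serpina1d differed by 0.12 (-0.22 to 0.46). Its values also spread most among the mutants, with an SD of 0.33 against 0.17 in wild type and 0.22 in rescue. The shared probe sets differed by -0.02 ± 0.14 and -0.04 ± 0.10 between mutant and wild type. These copies are near identical, so signal of 1 may reach the probes of another, and the values of single copies are uncertain.

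Serpina3n, a mouse relative of antichymotrypsin that rises in the acute phase response, read 10.75, 10.64 and 10.68 in wild type, 10.84, 11.10 and 10.94 in mutant and 10.83, 10.34 and 10.63 in rescue liver. The mutants lay above all other animals, but the differences of 0.27 ± 0.13 against wild type (limma adjusted p = 0.164) and -0.36 ± 0.13 for rescue against mutant (limma adjusted p = 0.119) did not pass. Serpinh1, the collagen chaperone HSP47, differed by -0.04 (interval -0.28 to 0.20) in the mutant.

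**Figure D3:**
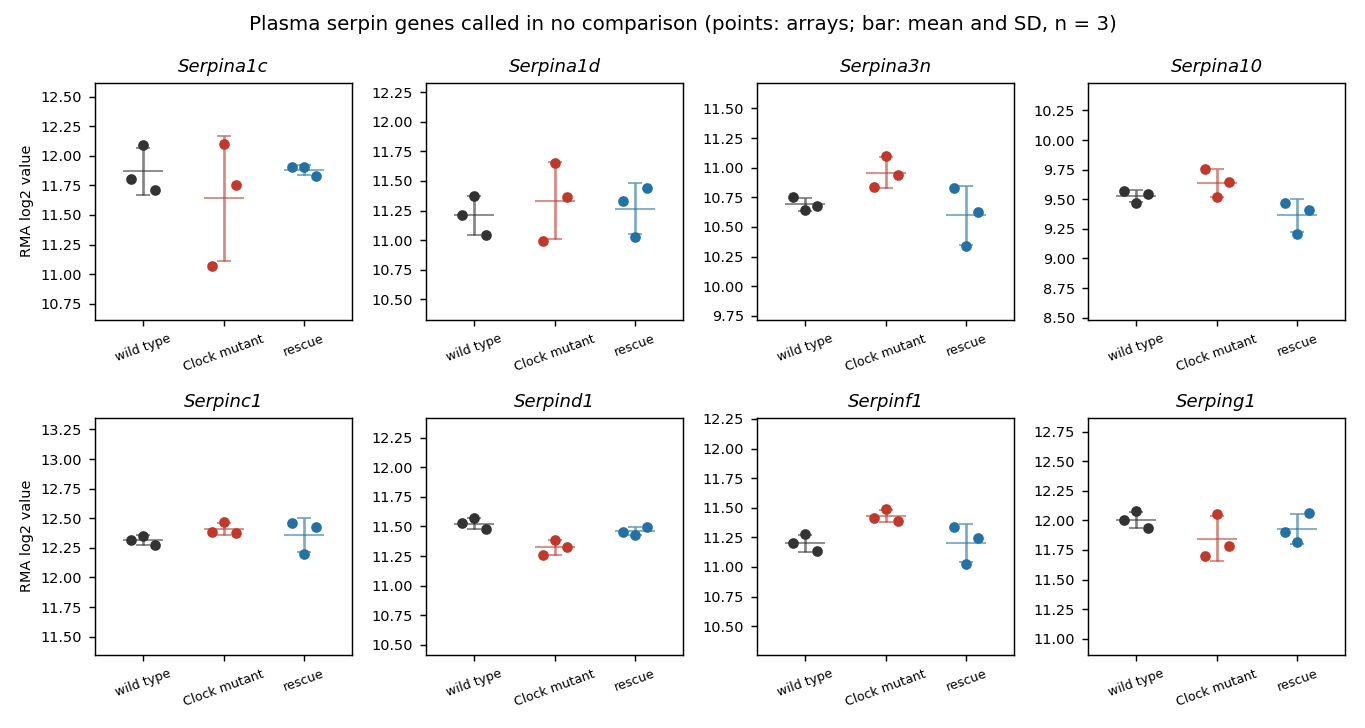
RMA log2 value of 8 plasma serpin genes that were called in no comparison, on each array (points) with the mean and SD of each group (bar, n = 3); each panel spans 2 log2 units. Serpina1c spreads most, from 11.07 to 12.10 among the mutants, and Serpinc1 stays between 12.20 and 12.47 on all arrays.

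The share of genes whose values did not overlap between groups was also read beside that of all genes. Mutant and wild-type values did not overlap for 16 of 47 genes (34%, against 35.7% of all genes), 10 of them higher and 6 lower in the mutant. Rescue and mutant values did not overlap for 11 (23.4%, against 25.7%), of which 3 were higher in rescue. Rescue and wild-type values did not overlap for 6 (12.8%, against 19.5%). Among the 20 serpin genes outside the dimmest 40% of all genes, rescue replicate 2 was the lowest rescue array for 12. It was lowest for 42.8% of all genes of that brightness. The calls lost by its removal are given above. Its removal also made Serpina6 (-0.33, limma adjusted p = 0.0339) and Serpina9 (-0.48, limma adjusted p = 0.0499) called in mutant against wild type.

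The proteases that plasma serpins hold changed in both directions. Of 12 measured coagulation and complement proteases, 3 rose and 3 fell in mutant against wild-type liver, with a median difference of -0.13. Of all genes, 6.37% rose and 9.02% fell, and the shares were not compared by a test. F12, which starts contact activation, rose by 0.67 ± 0.14, F7 of the extrinsic pathway by 0.52 ± 0.11 and the prothrombin gene F2 by 0.44 ± 0.12, while F9, the hemophilia B factor, was at -0.55 ± 0.12 (limma adjusted p = 0.00575, 0.00664, 0.0225 and 0.00711, n = 3 per group). In rescue against mutant liver F11, a factor of the intrinsic pathway, rose by 0.53 ± 0.10 (limma adjusted p = 0.013). It was also 1 of the 3 that fell in mutant against wild type (-0.32, limma adjusted p = 0.0403). The other 11 did not pass in rescue against mutant, where 3.81% of all genes were called. In rescue against wild type none of the 12 passed, with a median of 0.05, and 2.28% of all genes were called.

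Plasmin, the target of Serpinf2, is made from plasminogen. Of 12 measured plasminogen system genes, 5 lay below the olfactory receptor mark on every array, and 2 were called in the mutant, where 15.4% of all genes were. Vtn, which encodes the plasma adhesion protein vitronectin, rose by 0.38 ± 0.12 (limma adjusted p = 0.0395). The tissue factor gene F3 was at -0.57 ± 0.13 (limma adjusted p = 0.00894). None of the 12 passed in rescue against mutant or rescue against wild type, where 3.81% and 2.28% of all genes did. Among 16 leukocyte proteases and cathepsins, only Prtn3, which encodes proteinase 3, was called in the mutant (0.38 ± 0.11, limma adjusted p = 0.0334). Of all genes, 15.4% were called there. Prtn3 lay below the olfactory receptor mark on every array, mutants included, so its signal need not be expression. The lysosomal protease gene Ctsd alone was called in rescue against mutant, where 3.81% of all genes were. It fell by 0.51 ± 0.13 (-0.51, limma adjusted p = 0.0488). Of these 16 genes, 11 lay below the olfactory receptor mark on every array.

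Of 30 measured protease inhibitors outside the family, 5 rose and 2 fell in mutant against wild-type liver, with a median of 0.10. Of all genes, 6.37% rose and 9.02% fell. Timp3, an inhibitor of matrix metalloproteases, was at -1.07 ± 0.10 and Tfpi, the tissue factor pathway inhibitor, at -0.70 ± 0.14, whereas Wfdc2 rose by a measured 0.65 ± 0.11 and Itih3, a heavy chain of the inter-alpha-inhibitors, by 0.55 ± 0.11 (limma adjusted p = 2.62e-05, 0.0036, 0.00132 and 0.00401). Wfdc2 lay above the olfactory receptor mark on the 3 mutant arrays alone, so the sizes of its differences are uncertain. Timp3 and Tfpi are made largely by cells other than hepatocytes. The endothelial and Kupffer marker values are given above, and of 22 stellate cell markers 3 fell and 1 rose in the mutant. The part of these cells in the Timp3 and Tfpi values was not tested. In rescue against mutant, Timp3 rose by 0.50 ± 0.10 and Wfdc2 fell by 0.48 (limma adjusted p = 0.0204 and 0.029). In rescue against wild type, Slpi (0.53 ± 0.11) and Tfpi2 (0.55 ± 0.12) were higher (Slpi from a wild-type level near the olfactory receptor mark) and Timp3 lower (-0.57 ± 0.10; limma adjusted p = 0.0189, 0.0267 and 0.00851). Among 22 collagens and collagen-modifying genes, the clients and partners of Serpinh1, Col18a1 alone was called (0.38 ± 0.11 in the mutant, limma adjusted p = 0.0306). Of all genes, 15.4% were called in mutant against wild type, 3.81% in rescue against mutant and 2.28% in rescue against wild type.

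**Figure D4:**
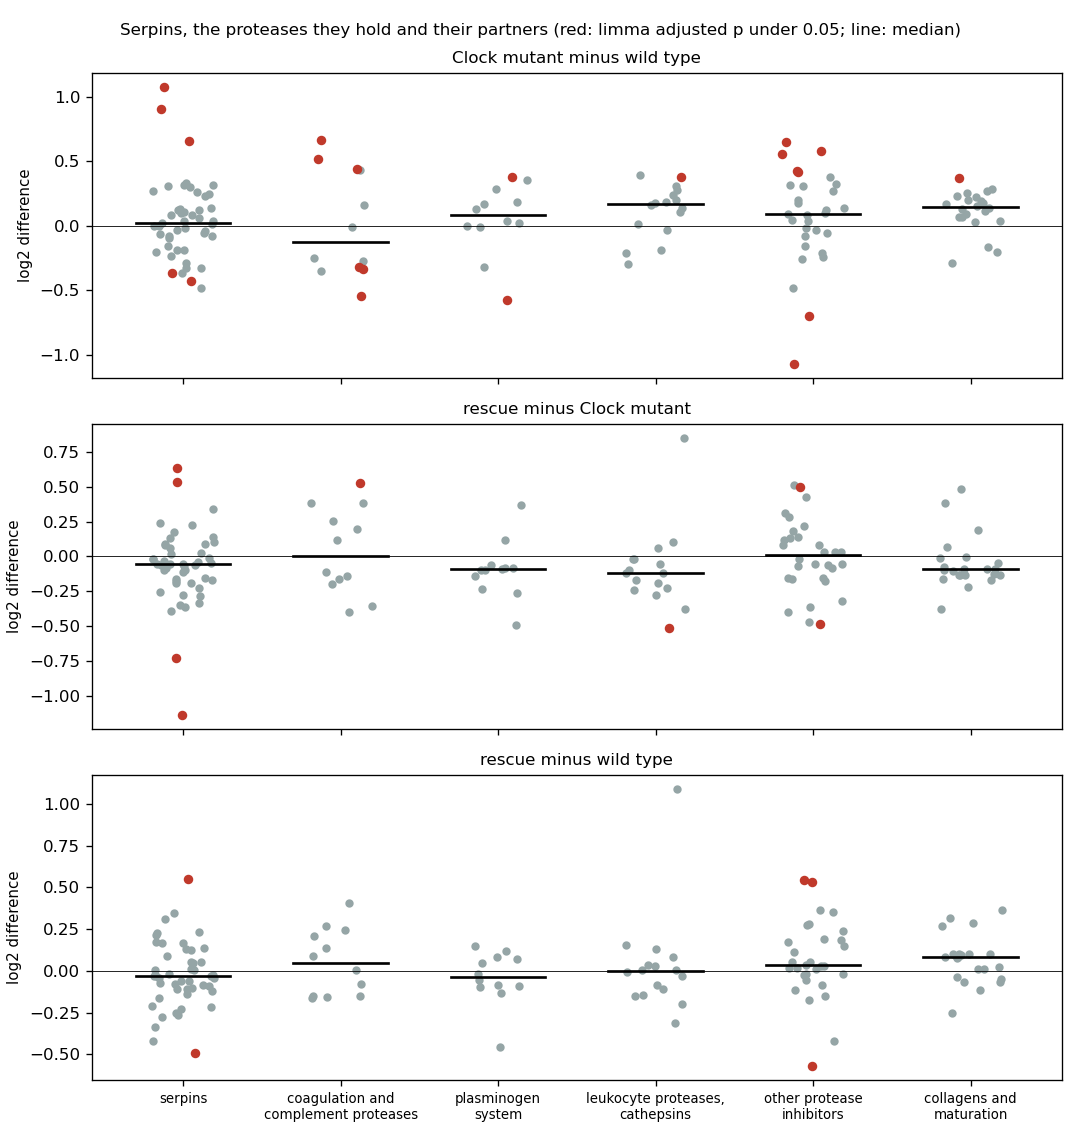
Log2 difference of the 47 serpin genes and of 5 other gene lists in 3 comparisons. The lists are clotting and complement proteases, the plasminogen system, leukocyte proteases and cathepsins, other protease inhibitors, and collagens with their maturation enzymes. Points are genes, red marks an adjusted p under 0.05 by limma and black lines are medians. In the mutant, called genes lie on both sides of 0 among serpins, clotting proteases, the plasminogen system and other inhibitors. Medians stay between -0.13 and 0.17.

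The tissue read as liver in every group. The mean log2 level of 16 measured hepatocyte markers was 12.02 to 12.18 in wild type, 12.16 to 12.28 in mutant and 12.08 to 12.27 in rescue liver, and none was called in any comparison. Clock, the mutated gene, read 9.97, 9.24 and 9.30 in wild type, 10.88, 9.89 and 10.55 in mutant and 10.33, 9.41 and 9.62 in rescue; its probe set does not separate the mutant from the plasmid transcript and so does not check the labels. In mutant against wild type, where 15.4% of all genes were called, 1 stellate cell marker of 22 rose and 3 fell. There, 1 of 10 lymphocyte markers fell and 1 of 10 exocrine pancreas markers rose. None was called among 7 mast cell, 7 bile duct, 7 mesothelial and 2 red cell markers.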

How the data were processed

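The authors deposited log2 expression values per probe set, made with RMA in Affymetrix Expression Console per the submitters' processing notes, which name no version. RMA corrects background, equalizes the distributions of the arrays and summarizes probes, so a shift of nearly all genes could be lost. The base of the logarithm follows from the values (highest 13.86). Of 35556 probe sets, 21789 had 1 gene symbol in the platform annotation, 1621 several and 12146 none; the brightest probe set per gene left 19938 genes.

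Serpin members, lists and tests were chosen with earlier results of these data known. Named are all called members, the known plasma serpins and, per list, up to 4 called genes of smallest p. All 9 arrays entered 1 limma 3.58.1 model (R 4.3.3; 6 residual and 8.475 prior degrees of freedom), tested on simulated data; matplotlib 3.10.9 drew the figures. Replicates are separate animals; the number of arrays limits precision. Deviations from the group means had r of -0.11 to 0.19 between same-numbered arrays of different groups, over 0.1 in 4 of 9 pairs. Between differently numbered arrays r was -0.26 to 0.18, over 0.1 in 3 of 18 pairs. The labels do not say what a number shares, so numbers were not taken as pairs. A weak shared deviation remains possible. Entrez identifiers of all 47 members matched the gene table of GRCm38.p6, used for names, order and span.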

Additional observations from a re-analysis of the deposited data

How the results depend on the processing

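Each comparison was refitted under 17 alternatives. With each of the 9 arrays left out in turn, the number of serpin genes called ran from 3 to 7 for mutant against wild type (5 in the reported fit), from 1 to 4 for rescue against mutant (4) and from 0 to 2 for rescue against wild type (2); the single calls lost are named with their genes above. The count for all genes then ran from 1695 to 3130 (3068 reported), from 200 to 692 (759) and from 233 to 501 (454). Under the other 8 settings the serpin counts stayed within 1.5 times, except 1 gene for rescue against wild type with only the 6 arrays compared. The count for all genes reached 1178 and 711 for rescue against mutant and against wild type without the dimmest 40% of genes, and 1210 and 704 with a trended and robust prior. With the replicate number as a block, 6, 4 and 2 serpin genes were called, and all genes called were 3368, 931 and 507. With each array centred on its median, 610 genes rose and 2272 fell in the mutant (1270 and 1798 reported), and 780 rose and 126 fell in rescue against mutant (520 and 239); with the span trend removed these were 793 and 1818, and 504 and 138. Serpina3b, Serpina9, Serpinb9 and Serpini2 were called for mutant against wild type in 1 or 2 alternatives each. No called serpin changed direction under any of the 17. With 3 animals a group, small differences of the dim members were not detectable.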
